A study of Mus musculus with 15 samples.

Results

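The testis library is 1 of 15 mouse small RNA libraries, and it was set against the 11 other libraries of organs not labelled as embryo. These were brain, eye, heart, kidney, liver, lung, salivary gland, smooth muscle, spinal cord, spleen and stomach, called other adult libraries here, although the labels give no age. The 3 remaining libraries came from embryos of 11, 15 and 17 days and are given beside testis only as further values. The RNA was bought as a ready panel of total RNA. The labels name neither strain, age and sex nor how many animals each RNA came from. Every group is 1 library without genetic change or treatment, so no difference has a replicate check, no p-value is given, and each ratio compares libraries. The series asks which arm of a miRNA hairpin is used in each tissue, and small RNAs were captured with randomized adapters to lessen ligation bias.

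The files list read counts per mature miRNA name. Testis held 148052 reads over 686 names, against totals between 922137 in stomach and 3161463 in brain. Levels are given as CPM, the count scaled to the library total, or as a percent of these reads. In testis 1 read stood for 6.75 CPM, against 1.08 CPM in stomach and 0.316 CPM in brain. Of the 1558 names in any library, 297 had at least 20 testis reads, which is 135 CPM, and they held 98.8% of testis reads. Names at the edge of this minimum were miR-297c-5p and miR-340-3p with 20 reads, just inside, and miR-196a-5p with 19 reads, just outside. Intervals are exact 95% intervals (Clopper-Pearson for a share, conditional binomial for a ratio). They cover counting error only, since reads copied by PCR are not independent molecules. Among the libraries used for comparison, the one labelled smooth muscle held 27.9% of its reads in the gut and kidney epithelial names miR-192-5p, miR-194-5p and miR-215-5p, against 15.7% in smooth muscle names, and it is called by its label here.

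A miRNA is cut from a hairpin whose 5p and 3p arms can each give a mature strand, and bases 2 to 8 of that strand, the seed, choose most of its targets. The testis holds germ cells at all steps from dividing spermatogonia through meiotic spermatocytes to spermatids, beside Sertoli, Leydig and peritubular cells. Known for this organ in mouse are the miR-34b, miR-34c and miR-449 miRNAs, which share a seed and act in late germ cells and in ciliated cells, miR-202 of the gonads, and a cluster of fast evolving miRNAs on the X chromosome. Male germ cells also hold piRNAs, a longer class of small RNA. In whole organs, more cells of a type and more RNA per cell cannot be told apart.

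The sequences below are those of names with high testis counts, with the seed in capitals, taken from RefSeq (GRCm38.p6). The first set shows the seed that joins the miR-34 and miR-449 5p strands, on 3 chromosomes.
miR-34a-5p: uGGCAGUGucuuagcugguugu
miR-34b-5p: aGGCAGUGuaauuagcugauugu
miR-449a-5p: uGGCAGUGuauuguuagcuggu
miR-449c-5p: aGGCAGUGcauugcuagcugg
miR-34b-3p: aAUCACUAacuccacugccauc
miR-34c-3p: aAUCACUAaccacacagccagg
miR-202-5p: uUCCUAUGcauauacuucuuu

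The second set shows X-linked names, where the seeds of miR-743a-3p and miR-743b-3p, of miR-883a-3p and miR-883b-3p, and of miR-871-5p and miR-743a-5p are shared. The miR-465a-3p sequence is also that of miR-465b-3p and miR-465c-3p.
miR-465a-3p: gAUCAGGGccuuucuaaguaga
miR-465c-5p: uAUUUAGAauggcgcugaucug
miR-743a-3p: gAAAGACAccaagcugaguaga
miR-743b-3p: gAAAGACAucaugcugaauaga
miR-883a-3p: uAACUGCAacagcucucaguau
miR-883b-3p: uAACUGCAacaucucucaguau
miR-871-5p: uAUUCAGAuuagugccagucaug
miR-743a-5p: uAUUCAGAuuggugccugucau
miR-881-3p: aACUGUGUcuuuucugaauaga
miR-741-3p: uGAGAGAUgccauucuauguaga

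The third set shows names from autosomes that were nearly absent outside testis, of which miR-468-5p is 27 bases long.
miR-7217-5p: aACUUGUAucuugugagacagaagg
miR-468-5p: gACUGAUGuacugauaagaaacucagu
miR-7210-5p: uAACAUUGuagacaggcacaaag
miR-7230-5p: aGACUGCUguuucucugaguggc

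The 5 markers of testis were all high in the library with that label. The germ cell miRNA miR-34c-5p had 48645 CPM in testis (95% interval 47555 to 49753), against 13.3 CPM in smooth muscle, a median of 42.2 CPM and 3270 CPM in lung, the lowest, middle and highest of the other adult libraries. The related miR-449a-5p had 14468 CPM in testis, against 3.48 to 563 CPM in the others with a median of 10.8. The gonadal miR-202-5p had 30530 CPM in testis, against 0 CPM in liver, a median of 1.01 and 16.3 CPM in stomach. The X-linked miR-741-3p had 7254 CPM in testis, against 0 to 4.34 CPM in the others. The X-linked miR-743a-3p had 8578 CPM in testis, against 0 to 6.51 CPM in the others. For none of the 5 did testis overlap with any other adult library.

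**Figure D1:**
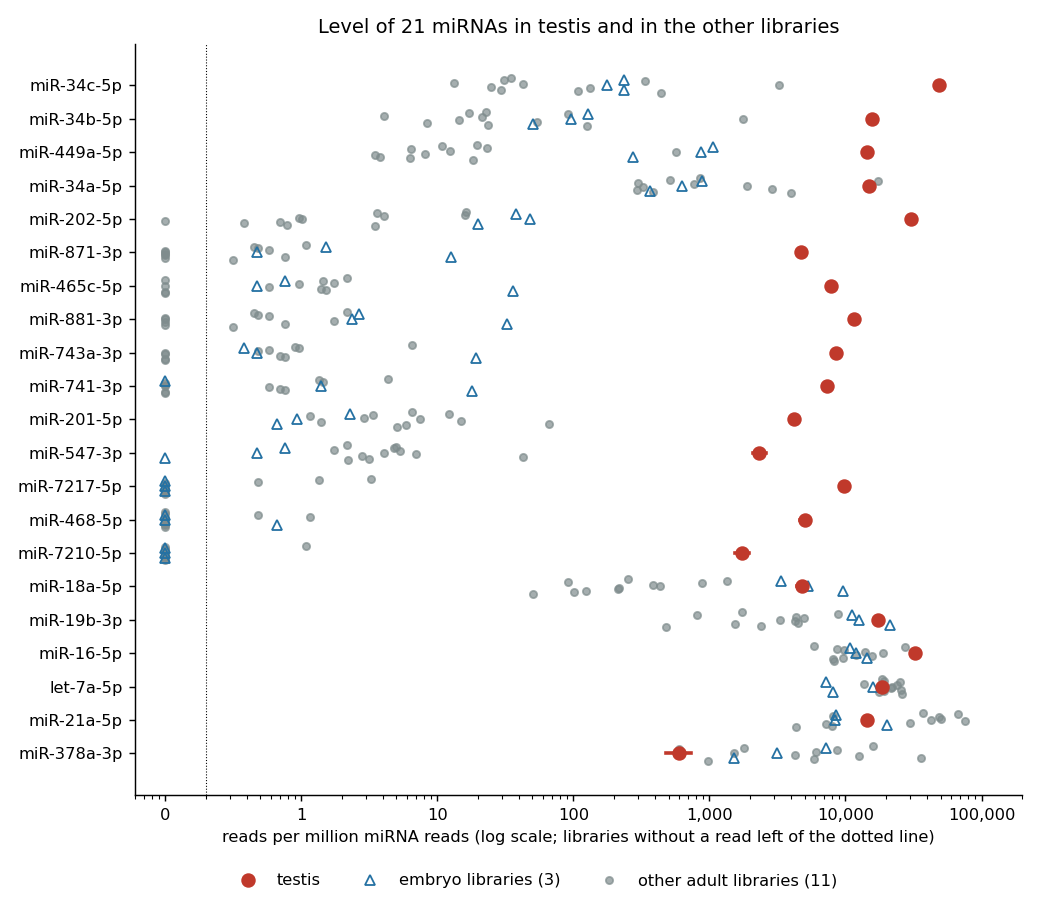
Level of 21 miRNAs in CPM on a log axis, 1 row per miRNA, in testis (red, with the 95% counting interval), the 3 embryo libraries (open triangles) and the 11 other adult libraries (grey). Testis lies above every other adult library for all rows from miR-34c-5p to miR-16-5p except miR-34a-5p, which was higher in spinal cord, and miR-16-5p lies below spleen with both other scalings.

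Testis exceeded all 11 other adult libraries for 44.8% of the 297 names, and it was at least 4 times the highest of them for 86 names (29%), with 47 names in between. It was at least 4 times their median for 132 names (44.4%). A name with few reads elsewhere could enter this list only by being high in testis, so these shares describe the list and are no test. Names can also be chosen without testis, as the 173 names whose median level in the others would give at least 20 reads in testis. Among these, 22 lay above all others (12.7%), 15 lay at least 4-fold above their median (8.67%), and 5 lay at least 4-fold below it (2.89%). The median ratio of the 173 names to the others' median was 0.94.

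No other adult library had as many such names. With an equal minimum share of reads, each of the others was set against testis and the remaining 10 in the same way. The number at least 4 times the highest was 10 of 227 names in eye (4.41%), 9 of 163 in heart (5.52%) and 4 of 177 in smooth muscle (2.26%). It was at most 3 in the others, and it was 0 in lung. Names above all others, without the 4-fold limit, were also frequent in spinal cord (82 of 278, 29.5%) and brain (74 of 266, 27.8%). Brain and spinal cord stand against each other here, while testis stands against no other reproductive organ. The 4-fold counts are therefore not on equal terms.

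**Figure D2:**
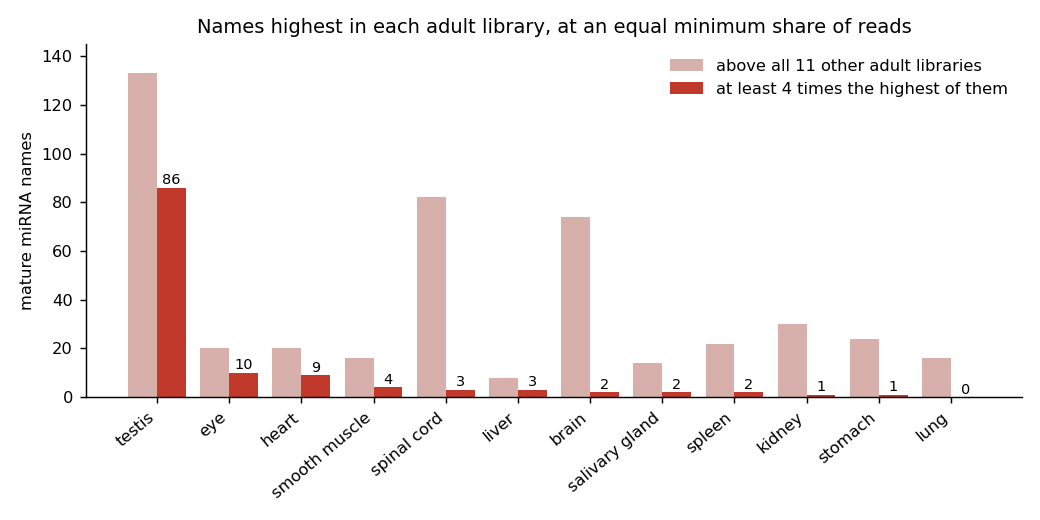
Number of names above all other adult libraries (light bars) and at least 4 times the highest of them (dark bars, with their number), for testis and then each other adult library, at a minimum of 135 CPM. Testis has 44.8% of its 297 names in the light bar and 86 names in the dark bar, and eye has the next highest dark bar with 10.

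The 86 names held 31.0% of testis reads. For their own such names the other adult libraries held from 0% in lung to 30.6% in heart and 33.8% in liver. The 86 names of testis fell into a few groups. They were 32 names of the X-linked germ cell cluster, 6 of the miR-34 and miR-449 family, both arms of miR-202, 28 names of miR-468 and of hairpins numbered from miR-7210 to miR-7242, 15 names of the miR-297, miR-466, miR-467 and miR-669 families, and 3 others. Without the libraries labelled smooth muscle and stomach together, 89 names were at least 4 times the highest other. Of the 86 names, 18 were without a read in all 11 others and 50 had fewer than 10 reads there in total, out of 23497744 reads. The 25 largest ratios belonged to 15 X-linked names, 9 of the autosomal names and miR-202-5p. For 23 of these 25 the highest other library held only 1 to 3 reads, so their order is not fixed by these counts. Names without a read in all 11 others were set against 3 reads in stomach, so the choice of the 25 also depends on that floor. Against the embryo libraries, 68 of the 86 names were also at least 4-fold above the highest of the 3, and 5 were higher in an embryo library than in testis.

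The X-linked germ cell cluster took the largest share of the listed groups. Its 36 names held 13.3% of testis reads (13.1 to 13.5), against 0.0125% in heart, 0.00727% in stomach and a median of 0.0016% over the other adult libraries. That is 19657 testis reads, against 704 reads in the 11 others together. In mouse these hairpins are known from male germ cells. Of the 36 names, 32 had at least 20 testis reads, between 29 and 1716, and for each of the 32 the ratio of testis to the highest other library was 55.1 or more, with names at 0 in all others set against 3 reads in stomach. The other 4 were the minor arms miR-201-3p with 14 reads, miR-880-5p with 2, and miR-465d-5p and miR-547-5p with 1 each.

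Single X-linked names show how few reads the others held. miR-881-3p, the most abundant, had 1716 reads in testis (11591 CPM), against 11 reads in the 11 other adult libraries together and at most 2 in 1 library, which gives 5344 times the stomach level (1477 to 44163). miR-465c-5p had 1163 reads in testis, against 17 in the others together. Both arms of miR-871 were present, with 682 reads of miR-871-5p in testis against 1 in the others together, and 698 reads of miR-871-3p in testis against 7. Between testis and each other adult library there was no overlap for any of these names. miR-470-5p and miR-470-3p had 750 and 210 testis reads, against 7 reads and 1 read in the others together. miR-471-5p and miR-471-3p had 441 and 325 testis reads, against 5 and 3. miR-883a-3p and miR-883b-3p, which share a seed, had 1149 and 355 testis reads, against 13 and 4. The seed shared by miR-743a-3p and miR-743b-3p stood for 2144 testis reads. miR-880-3p had 796 testis reads against 7 in the others together. miR-741-5p had 152 testis reads against 3, and miR-883a-5p had 94 against 1.

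The 3 names miR-465a-3p, miR-465b-3p and miR-465c-3p had 1437, 1437 and 1431 testis reads. Their sequence is the same, so their reads cannot be told apart, and the sources used here do not say how such reads were counted. Counted once, they leave 11.6% of testis reads in the cluster.

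Most of these hairpins lie close together. In GRCm38 the RefSeq table places 18 hairpin copies of the list on the minus strand at chrX:66776757-66839125, a stretch of 62369 bases between Slitrk2 and Gm1140, and none overlaps a gene of GENCODE vM21. The order along the transcribed strand runs from miR-465a through the miR-465b and miR-465c copies, miR-470, miR-871, miR-881, miR-878, miR-880, miR-463, miR-741, miR-471, miR-883b, miR-883a and miR-742 to miR-743b and miR-743a. miR-201 and miR-547 lie apart, at chrX:67988096-67988451, a stretch of 356 bases between 4933436I01Rik and Fmr1.

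**Figure D3:**
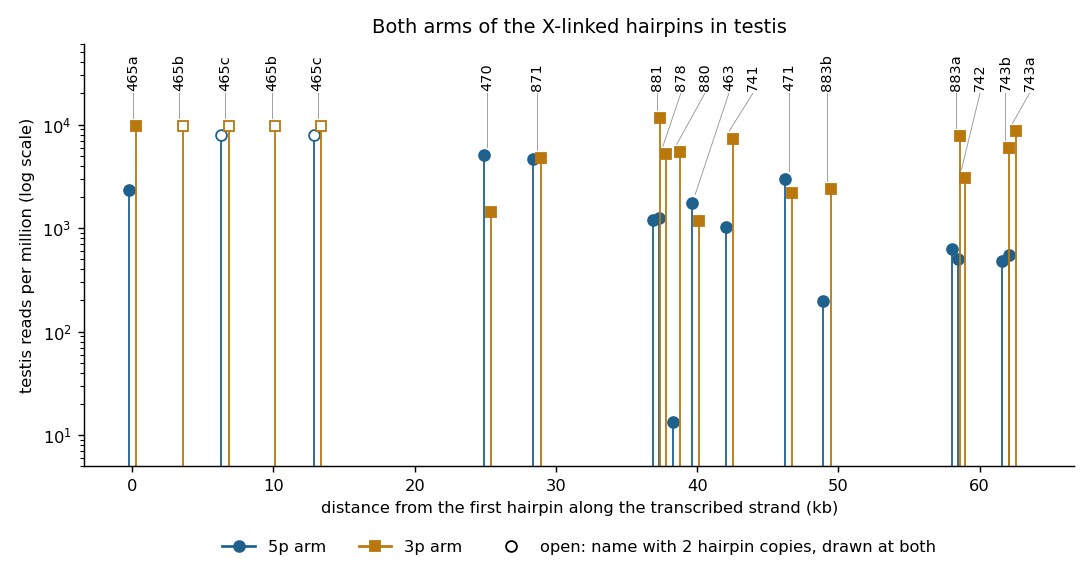
Testis level of both arms of the X-linked hairpins in CPM (log axis), by distance in kb from the first hairpin along the transcribed strand, with miR-465b and miR-465c drawn open at both their copies. miR-465a-3p at one end has 9706 CPM and miR-743a-3p at the other has 8578 CPM.

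The names that lie apart also differed from the rest outside testis. miR-201-5p had 4201 CPM in testis, against 65.6 CPM in heart, a median of 5.92 CPM and 1.16 CPM in smooth muscle. miR-547-3p had 2330 CPM in testis, against 42.3 CPM in heart and 1.74 to 6.91 CPM in the remaining libraries. Both were above every other adult library in testis, and heart stood apart from the others for both. These 2 names made up 283 of the 328 heart reads of the list. Without miR-201 and miR-547 the cluster had 18675 reads in testis, against 191 reads in the other adult libraries, from 0 in lung to 59 in stomach. In the embryos the same names had 611 reads at 11 days, which made 0.0407% of reads with miR-201 and miR-547 included, and 0.00197% and 0.00187% at 15 and 17 days. The X chromosome held 32 of the 66 names with a position among the 86 (48.5%), against 20 of 177 names below the 4-fold limit (11.3%). These 32 are the X-linked list names described above, so the share describes that list and not the chromosome as a whole.

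The arm that led differed along the cluster. In testis the 3p arm led in 12 of 17 hairpins with enough reads, the 5p arm in 4, and 1 was undecided. Of the 17, miR-465a and miR-465c have 3p reads that cannot be told apart, so their leading and lesser arms are uncertain. Among the 170 hairpins outside this cluster and the autosomal group below, the 3p arm led in 71, the 5p arm in 94, and 5 were undecided. The 5p share, the 5p reads as a percent of the reads of both arms, ran from 0.251% for miR-880 (798 reads) to 97.8% for miR-201 (636 reads). The neighbours miR-743a, miR-743b, miR-883a and miR-883b had 5p shares of 6.07%, 7.61%, 7.56% and 7.55%, while miR-742, which lies between miR-743b and miR-883a, had 14.2% (11.3 to 17.4). miR-871 used both arms about equally, with 49.4% (46.7 to 52.1), and miR-470 led from the 5p arm with 78.1% (75.4 to 80.7). In 9 of the 17 the lesser arm held over 10% of reads, against 42 of the 170. No other adult library had the 20 reads needed for a comparison except for miR-201, which lay within the range of 4 libraries, and miR-547 in heart.

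The miR-34 and miR-449 family held 10.9% of testis reads (10.7 to 11.0), against 1.82% in spinal cord, 0.807% in lung and a median of 0.0867%. Of its 8 names with at least 20 testis reads, 6 exceeded all other adult libraries at least 4-fold, where 29% of all 297 names did. Only miR-34a-5p of the 8 is among the names chosen without testis, so this count describes the list and is no test. For all 6 the second place was taken by lung, an organ with ciliated cells. miR-34c-5p in testis was 14.9 times lung (14.4 to 15.3), and without lung it was 111 times the next library, brain. miR-449a-5p in testis was 25.7 times lung (24.1 to 27.4), and 626 times the next library, spinal cord. miR-34b-5p had 15717 CPM in testis, against 1762 CPM in lung and a median of 22.8 CPM, a ratio to lung of 8.92. miR-34b-3p, miR-34c-3p and miR-449c-5p were 26.4, 25.3 and 9.01 times lung. For miR-449c-5p the embryos came close to testis, with 358 CPM in testis, against 114, 201.4 and 254 CPM at 11, 15 and 17 days. miR-449a-5p stayed far above the embryos, with 14468 CPM in testis, against 274, 865 and 1066 CPM at 11, 15 and 17 days.

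miR-34a, the member with the same seed that is known as a target of p53 in many tissues, did not follow. miR-34a-5p had 14961 CPM in testis, against 17444 CPM in spinal cord, 3966 CPM in brain and a median of 774 CPM. Its ratio to spinal cord was 0.858 (0.821 to 0.895). With the DESeq2 size factors testis exceeded spinal cord as well, so that all 8 names lay above every other adult library, while with TMM scaling 6 did. The miR-34b and miR-34c hairpins lie 452 bases apart on chromosome 9, in an intron of Btg4 on the opposite strand. miR-449a and miR-449c lie on chromosome 13 in an intron of Cdc20b on its own strand.

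miR-202 is known from the gonads of both sexes. Its arms held 3.20% of testis reads (3.11 to 3.29), against at most 0.00174%, in stomach, and none in liver. miR-202-5p, with 4520 reads, was the fourth most abundant name in testis, against 83 reads in the other adult libraries together. In testis it was 1877 times stomach (1137 to 3356). miR-202-3p had 220 testis reads, against 5 in the others together. The 5p share was 95.4% (94.7 to 95.9). The hairpin lies at chr7:139957689-139957760 on the minus strand, in an exon of the long noncoding RNA Gm2044.

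The 28 autosomal names held 3.99% of testis reads (3.89 to 4.09). This group was put together after the values were seen, from names at least 4-fold above the others that had fewer than 10 reads outside testis, so its low level elsewhere is how it was chosen. The 28 names had 5911 reads in testis, against 28 reads in the 11 other adult libraries together and 1 read in the embryos. For 14 of them no other adult library held a read. miR-7217-5p had 1439 reads in testis (9720 CPM), against 7 reads in the others together and at most 3 in 1 library. miR-468-5p had 5019 CPM in testis and miR-468-3p 1945 CPM, against 3 and 2 reads in the others together. miR-7214-5p had 380 testis reads, against 2. miR-7230-5p, miR-7218-3p, miR-7232-5p, miR-7234-5p and miR-7241-3p had 282, 275, 243, 226 and 152 testis reads, against 1 read each in the others together. miR-7233-3p, with 200 testis reads and none in any other adult library, was at least 415-fold higher in testis, with the others set at 3 reads in stomach, the shallowest of them. No role is given here for these names.

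Their 16 hairpins lay at 9 places in the genome, with gaps of at most 50000 bases within a place, and 5 of the places held more than 1 hairpin. The place with most reads was chr17:27317035-27358155, with miR-7214, miR-7216, miR-7217 and miR-7218 and 2302 testis reads. There miR-7217 and miR-7218 overlap an exon of the long noncoding RNA Gm49794. miR-468 and miR-7232 lie 936 bases apart on chromosome 6, with 1336 testis reads.

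These mature sequences were longer than those of other names. Of the 24 with a RefSeq sequence, 8 had at least 24 bases (33.3%), with a median of 23 and a range of 17 to 27. None of 32 X-linked sequences did, with a median of 22, and 8 of 187 other names with at least 20 testis reads did (4.28%). Lengths are those of the reference, not of the reads. A U at the first base was found in 13 of the 24 (54.2%), in 21 of the 32 X-linked sequences (65.6%) and in 94 of the 187 others (50.3%). The relation of these names to piRNAs was not tested. In these 16 hairpins the 5p arm led in 9, the 3p arm in 4, and 3 were undecided, where the 5p arm led in 94 of the 170 hairpins of neither testis group. The autosomal hairpins had 5p shares from 6.82% for miR-7216 to 99.4% for miR-7217.

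The miR-297, miR-466, miR-467 and miR-669 families stem largely from many near-identical copies in an intron of Sfmbt2, and the counting could split or repeat their reads, so their values are uncertain. All 23 of their names with at least 20 testis reads lay above the other adult libraries in share of reads, where 44.8% of all 297 names did. These names are not among those chosen without testis, and the group was formed after seeing the values. The counts therefore describe the list and are no test. At least 4-fold differences were found for 15, where 29% of all names had them, between 4.17 and 8.81 times the highest. These 15 held 0.931% of testis reads. In the 11-day embryo miR-669a-5p had 967 CPM, above its 621 CPM in testis. Without these families the number of names at least 4 times the highest was 71.

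The 3 remaining names were both arms of miR-296, from an imprinted region, and miR-1981-5p. miR-296-5p had 1499 CPM in testis, against 201.8 CPM in brain and a median of 33.9 CPM, a ratio to brain of 7.43 (6.35 to 8.67). miR-296-3p had 399 CPM in testis, against 63.5 CPM in spinal cord and a median of 17.4 CPM, but it had 2836, 1501 and 1689 CPM in the embryos of 11, 15 and 17 days. miR-1981-5p had 601 CPM in testis, against 113 CPM in brain.

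Between 1 and 4 times the highest other library lay 47 names, 33 of them with a ratio interval above 1. Spleen was the highest other library for 22 of the 47, against 8 of the 86 names above the 4-fold limit. Of the 47, 29 were higher in an embryo library than in testis, against 5 of the 86. These shares were not counted over all 297 names. The 86 names are no neutral baseline, since many had few reads in the other adult libraries. The counts therefore describe the 47 names and are no test, and their cause was not tested. miR-18a-5p, of the miR-17-92 cluster, had 4775 CPM in testis, against 1357 CPM in spleen, a median of 217 CPM and 50.6 CPM in brain. Its ratio to spleen was 3.52 (3.24 to 3.82), and in the 11-day embryo it had 9612 CPM. miR-425-5p and its neighbour miR-191-5p were 2.27 and 1.91 times the highest other. miR-15b-5p had 13428 CPM in testis, against 7088 CPM in spleen and 424 CPM in brain. miR-147-3p, with 44 testis reads, was 3.30 times stomach (2.24 to 4.81). miR-16-5p, the third most abundant name in testis, had 32691 CPM there, against 27428 CPM in spleen and a median of 9718 CPM, but with TMM scaling and with DESeq2 size factors it lay below spleen.

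Those scalings matter for such small ratios. Relative to the share of reads, TMM moved the median of the 173 names by -0.83 on the log2 scale and the DESeq2 size factors by -0.48. The number of names at least 4-fold above and below the others' median was 132 and 5 with shares, 112 and 27 with TMM, and 121 and 17 with DESeq2 size factors. All 32 X-linked names and both miR-202 arms lay above every other adult library with either scaling.

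The miR-17-92 cluster and its paralogs, which drive proliferation in many cell types and are known from spermatogonia, held 6.29% of testis reads (6.17 to 6.42), against 4.29% in spleen, 2.57% in smooth muscle and a median of 1.51%. With TMM scaling testis fell below spleen (3.79% in testis, 4.24% in spleen), and with DESeq2 size factors it stayed above (4.60% in testis, 4.40% in spleen). Of 12 names with at least 20 testis reads, 11 exceeded all other adult libraries, against 44.8% of all 297 names, but 4 did with TMM and 6 with DESeq2 size factors. miR-19b-3p had 17440 CPM in testis, against 8772 CPM in spleen and a median of 3302 CPM. miR-106b-5p was the exception, with 2229 CPM in testis, against 4264 CPM in spleen. All 3 embryo libraries had high shares too, with 12.7%, 6.35% and 5.04% at 11, 15 and 17 days.

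**Figure D4:**
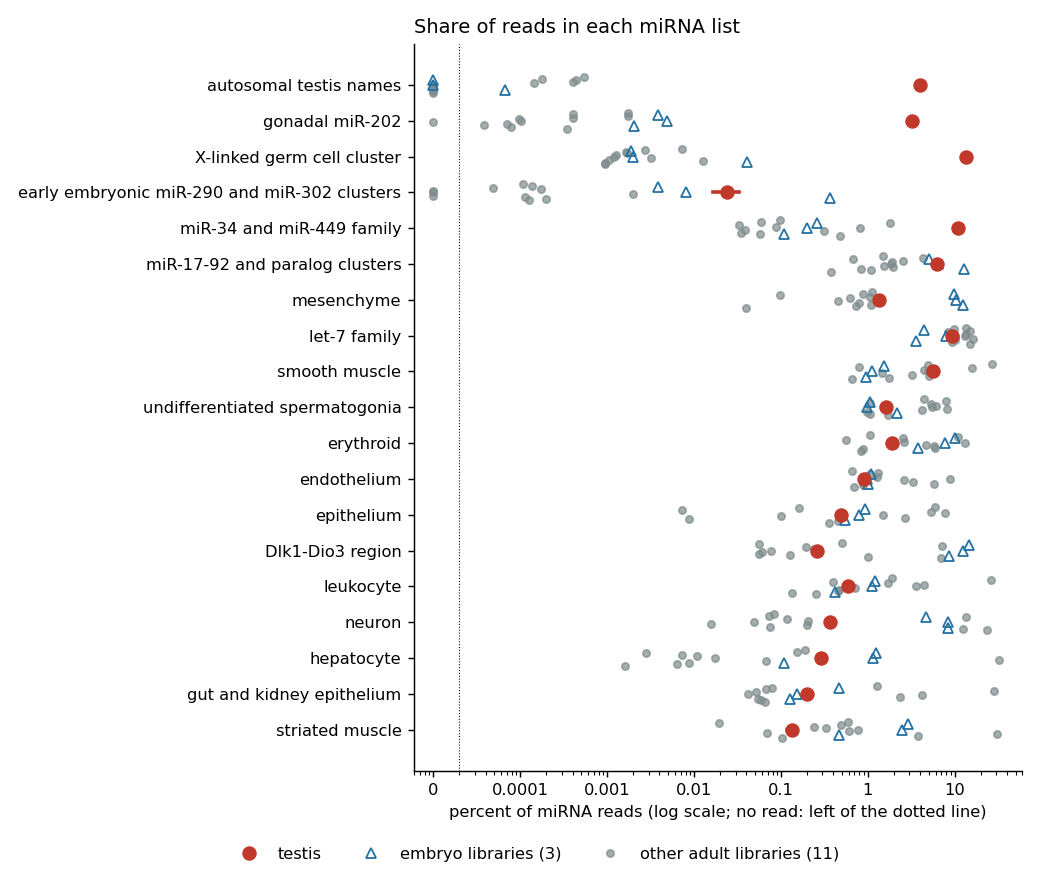
Percent of reads in each of 19 miRNA lists on a log axis, 1 row per list, in testis (red, with the 95% counting interval), the 3 embryo libraries (open triangles) and the 11 other adult libraries (grey), ordered by the ratio of testis to the highest other. Testis stands apart from the other adult libraries in the 3 upper rows, for miR-290 and miR-302 with only 35 testis reads, and for miR-34 and miR-449. The uppermost row is the autosomal group, which was chosen for its low level elsewhere. The miR-17-92 row falls below spleen with TMM scaling and the mesenchyme row falls below heart with both other scalings.

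The miR-290 and miR-302 clusters of early embryonic cells were barely present. They had 35 reads in testis, 0.0236% (0.0165 to 0.0329), against 54 reads in the 11 others together, at most 0.00196%, in liver. No name of these clusters reached 20 testis reads. The 11-day embryo had 0.368%.

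miRNAs known to keep spermatogonia undifferentiated in mouse were below the median of the other organs, with testis at rank 9 of 12. miR-21a, miR-146a, miR-221 and miR-222 together held 1.63% of testis reads, against 0.968% in heart, a median of 4.36% and 8.04% in liver. All 4 leading arms lay below the median of the others, with ratios to it between 0.34 and 0.42, where the 173 names had a median of 0.94. miR-21a-5p had 14400 CPM in testis, against 4354 to 76116 CPM in the others. The let-7 family, which marks differentiated cells, held 9.33% of testis reads, rank 10 of 12, against 8.32% to 16.02% in the others, and it had the lowest share of the 12 libraries with TMM and with DESeq2 size factors. let-7c-5p and let-7a-5p, among the 10 most abundant names, had 23512 and 18602 CPM in testis, against medians of 28207 and 21779 CPM.

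Other names among the 10 most abundant were widely shared. miR-143-3p, of smooth muscle and connective tissue cells, had 40668 CPM in testis, against a median of 35813 CPM and 174725 CPM in stomach. miR-26a-5p had 23080 CPM in testis, below the lowest of the others, 23606 CPM in liver, by less than the counting interval of testis (22321 to 23857). miR-29a-3p and miR-30c-5p had 22539 and 21236 CPM in testis, against medians of 26432 and 23852 CPM.

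Of the 5 names at least 4-fold below the median of the other organs, 3 belong to the miR-378 family, both arms of miR-378a among them. miR-378a-5p had 3 reads in testis, 20.3 CPM (4.18 to 59.2), against 45.7 CPM in spinal cord, a median of 353 CPM and 1993 CPM in heart. miR-378a-3p had 88 reads in testis, 594 CPM, against 601 CPM in spinal cord, a median of 5830 CPM and 35735 CPM in heart. miR-378c had 135 CPM in testis, against a median of 1286 CPM. Its ratio to the median was 0.105, close to the 0.102 of miR-378a-3p, and whether they share reads was not tested. The 3 names are therefore not separate results. miR-378a is encoded in an intron of Ppargc1b, while miR-378c lies on chromosome 14, and miR-378 is known from muscle, liver and brown fat. Spinal cord came nearest to testis for all 3, within the counting interval of testis. miR-802-5p, of liver and gut, had 5 reads in testis, 33.8 CPM, against a median of 236 CPM. miR-33-5p, which lies within the sterol regulator Srebf2 and restrains cholesterol export, had 7 reads in testis, 47.3 CPM, against a median of 226 CPM. The next lowest were miR-182-5p, miR-133a-3p, miR-133b-3p, miR-150-5p and miR-139-5p, at 0.256 to 0.296 of the median. No name lay at least 4-fold below the lowest of the others (0%), and 13 lay below all of them (7.51%).

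Markers of other cell types give the background in testis. Smooth muscle names held 5.55% of testis reads, against 0.657% to 26.8% in the others, erythroid names 1.91%, against 0.562% to 13.2%, and mesenchyme names 1.33%, against 0.0396% to 1.29%. Mesenchyme took the first rank of the 12 only with shares of reads, where its ratio to lung was 1.03 (0.983 to 1.08). This lead was within counting error, and the rank was 6 with TMM and 4 with DESeq2 size factors. The mesenchyme names miR-199a-3p and miR-199b-3p, with 752 and 756 testis reads, have the same sequence, so reads may be counted in both. The erythroid miR-486a-5p and miR-486b-5p had 125 testis reads each, and the same may hold for them. Endothelial names held 0.913%, leukocyte names 0.593%, epithelial names 0.486%, neuronal names 0.367%, gut and kidney epithelial names 0.199%, and striated muscle names 0.134% of testis reads. None of these markers was at 0 in testis, and each list was below its leading organ by a factor of at least 4 except mesenchyme. The hepatocyte miRNA miR-122-5p had 2776 CPM in testis (2514 to 3057), against 311546 CPM in liver and a median of 108 CPM. The part of other cells or other libraries in these values was not tested. The maternally expressed Dlk1-Dio3 region held 0.263% of testis reads, against 0.0553% in kidney and 7.203% in spinal cord.

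Arm usage of testis could seldom be told apart from that of the other organs at this read depth. Of 203 hairpins with at least 20 testis reads, 169 had at least 3 other adult libraries with 20 reads, and the other 34 could not be compared. The testis 5p share lay beyond the range of the others for 53 of the 169, 31 above and 22 below, as point values. The typical difference was small, with a median of 1.02 points from the median of the others, where the testis interval was 6.74 points wide in the median. Testis and the median of the others lay on different sides of 50% for 1 hairpin. Only 1 hairpin (0.592%) had a testis interval outside the intervals of all other libraries. Shifts within these intervals could be missed, so this count does not show equal arm usage.

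That hairpin was miR-872, which lies at chr4:94665157-94665237 in an intron of Ift74, a gene of cilia. The 5p share was 86.4% in testis (80.8 to 90.8, 198 reads). The others ran from 49.7% in stomach (41.7 to 57.7, 161 reads) over a median of 70.0% to 77.6% in lung (75.0 to 80.0, 1114 reads). Salivary gland and spleen, with 76.9% and 76.6%, and the 15-day embryo, with 77.1%, lay near lung. The nearest interval was that of salivary gland, which reached up to 80.7%, just under the lower bound of 80.8% in testis. With 99% intervals the miR-872 intervals overlapped. The level of miR-872-5p was 1155 CPM in testis, against 452 CPM in eye and a median of 196 CPM.

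**Figure D5:**
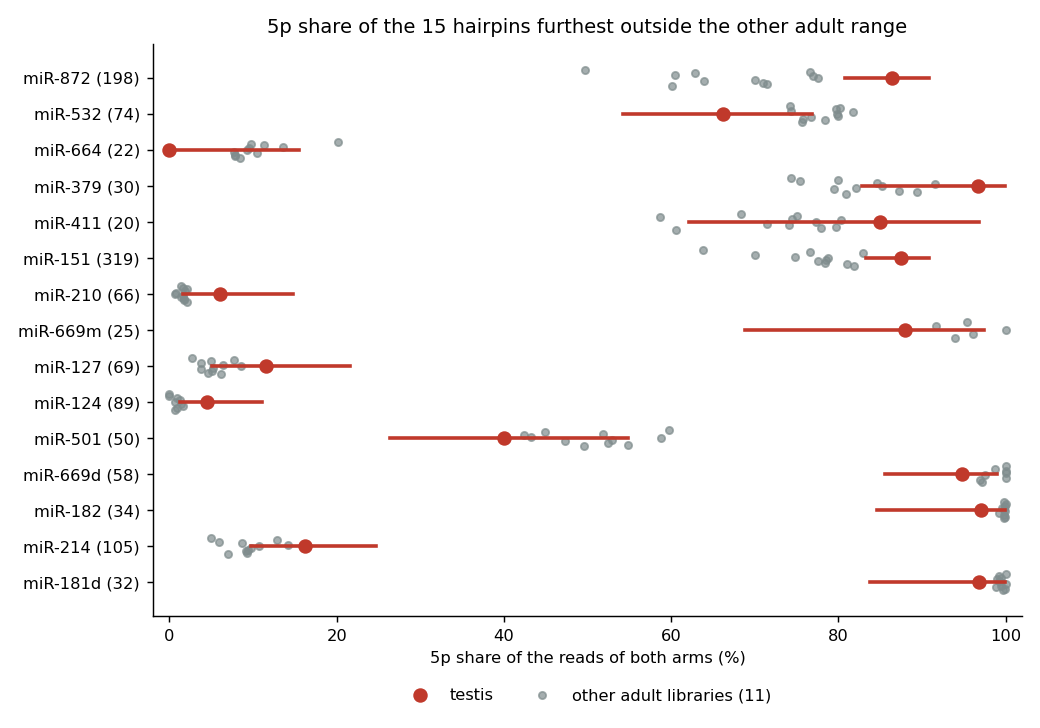
5p share in percent of the reads of both arms for the 15 hairpins whose testis share lies furthest outside the other adult range, with testis in red (95% interval) and the other adult libraries with at least 20 reads in grey. The number of testis reads stands after each name, and only the miR-872 interval is free of all grey intervals.

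The hairpins next in distance had wide intervals. miR-532 had a 5p share of 66.2% in testis (54.3 to 76.8, 74 reads), against 74.3% to 81.8% in the others. miR-664 had none of 22 testis reads on the 5p arm, which allows up to 15.4%, against 7.76% to 20.2%. miR-151, with 319 testis reads, had 87.5% in testis (83.3 to 90.9), against 63.8% to 82.9%, and its interval was clear of the others only without spinal cord, as was that of miR-30e. miR-15b was clear only without stomach. miR-379, miR-411, miR-210, miR-669m and miR-127 followed with testis shares of 96.7%, 85%, 6.06%, 88.0% and 11.6%, each 3.08 to 5.13 points beyond the nearest other library. The germ cell family members with enough reads elsewhere lay within the range of the others: miR-34c had 93.8% in testis, against 78.0% to 100% in the others, miR-34b 59.1%, against 38.7% to 88.4%, and miR-449a 99.7%, against 96.0% to 100%.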

How the data were processed

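Small RNA from total RNA was sequenced on 1 library per tissue. The deposited files hold raw read counts per mature miRNA name, made by the authors from reads ligated to randomized adapters, per the labels' protocols. The submitters' processing notes name the build mm10 and 4 tools, bcl2fastq 1.8.4, bedtools, BWA and cutadapt. Their options, the miRNA release and the treatment of reads that fit several names are not stated in the labels. Spike-in RNAs named in the protocol were not used here.

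Names missing from a library were taken as 0. CPM and percent are shares of the library total, which was 148052 in testis and 922137 to 3161463 in the other adult libraries. Names needed 20 testis reads, or, for low values, a median share in the others worth 20 testis reads. A call is a ratio of at least 4 and is no test, since each tissue has 1 library. Levels at 0 in all others were set to 3 reads in stomach, and medians under that level were raised to it. Intervals are exact 95% intervals. 5p shares were compared in hairpins with 20 reads of both arms in testis and in at least 3 other adult libraries. Sequences, positions and neighbours came from RefSeq (GRCm38.p6) and GENCODE vM21, both of the files' build.

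The miRNAs and lists were chosen with earlier results of these data known. Named are the 5 markers, the 10 names with most testis reads, the 25 largest ratios to the highest other, the 10 lowest ratios to the median, members of each list, and up to 15 hairpins furthest outside the 5p range. The miR-468 and miR-7210 to miR-7242 group and the miR-297, miR-466, miR-467 and miR-669 group were formed after seeing the values. Alternatives were other read minimums, TMM (edgeR 4.0.16) and DESeq2 1.42.0 size factors on the counts, a scaling to reads outside both germ cell lists, a floor of 1 read, identical names counted once, embryos added and each library left out. Scripts ran in Python 3.11.15 with scipy 1.17.1 and R 4.3.3 and were tested on simulated data.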

Additional observations from a re-analysis of the deposited data

Results flagged for a closer look

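Signals were also seen in the embryo libraries, which enter no comparison above, with intervals above those of all other adult libraries unless stated. The X-linked germ cell cluster held 0.0407% of reads in the 11-day embryo (612 reads), against 0.0125% in heart. miR-202 held 0.00492% and 0.00385% of reads in the embryos of 15 and 17 days, against 0.00174% in stomach. In the 11-day embryo it held 0.00206% (31 reads), with an interval of 0.00140% to 0.00292% that includes the stomach value. The miR-290 and miR-302 clusters of early embryonic cells held 0.368%, 0.00805% and 0.00389% of reads in the embryos of 11, 15 and 17 days, against 0.00196% in liver. The 17-day library has 17 days in its title but another day in its source name, and was grouped by title. None of these differences was tested, since each stage has 1 library.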

How the results depend on the processing

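The number of names at least 4 times the highest other, 86, was between 68 (embryos added) and 95 (scaling to reads outside the germ cell lists) under all alternatives except a minimum of 1 read, which gave 159. That minimum also gave 282 names above all others, 251 at least 4-fold above the median and 9 below it. Names at least 4-fold below the median numbered 3 at a minimum of 50 reads, 27 with TMM, 17 with DESeq2 size factors and 8 with the embryos added, against 5, and 1 lay 4-fold below the lowest with TMM. The cause of these moves was not tested. Leaving out each other adult library gave 86 to 94 names at least 4 times the highest, 4 to 7 at least 4-fold below the median, 0 to 1 below the lowest (1 without spinal cord) and 1 to 3 hairpins with a 5p share outside the others. That count of hairpins was 3 without spinal cord, 2 without stomach, 0 with 99% intervals and 2 with the embryos added (miR-449c and miR-872).

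List shares in testis moved by construction with the library factor. With TMM they were 6.53% for miR-34 and miR-449, 7.99% for the X-linked cluster, 1.93% for miR-202, 0.980% for undifferentiated spermatogonia, 3.79% for miR-17-92, 0.0142% for miR-290 and miR-302, 5.61% for let-7, 0.158% for Dlk1-Dio3, 0.174% for hepatocyte, 0.0805% for striated muscle, 0.221% for neuron, 0.357% for leukocyte, 1.15% for erythroid, 3.34% for smooth muscle, 0.550% for endothelium, 0.292% for epithelium, 0.120% for gut and kidney epithelium and 0.801% for mesenchyme. With DESeq2 size factors they were, in the same order without miR-290 and miR-302, 7.93%, 9.70%, 2.34%, 1.19%, 4.60%, 6.82%, 0.192%, 0.211%, 0.0977%, 0.268%, 0.433%, 1.39%, 4.06%, 0.667%, 0.355%, 0.146% and 0.972%. With the shared miR-465 sequence counted once, chosen after seeing the data, the X-linked cluster held 11.6%.

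The ratio of miR-16-5p to the highest other was 0.727 with TMM and 0.850 with DESeq2 size factors, against 1.19, and that of miR-19b-3p was 0.823 with the embryos added, against 1.99. Of 504 alternatives of 36 single ratios, 3 reversed, 50 moved and the rest moved by less than counting error. Without lung the ratios of miR-34c-5p and miR-449a-5p to the highest other were 111 and 626. Depth limits the low names most, since 3 testis reads are 20.3 CPM. No paired analysis was possible because each tissue has 1 library.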
